A study of Mus musculus with 49 samples.

Results

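The 9 genes described here encode transcription factors that steer blood cells into the granulocyte and monocyte lineages. They are the 5 C/EBP genes Cebpa, Cebpb, Cebpd, Cebpe and Cebpg, the PU.1 gene (Spi1, named Sfpi1 in the annotation used), Irf8, Klf4 and Gfi1. They were taken by symbol, as the rows of the deposited expression table whose Ensembl identifiers carry those names, and they are 9 of the 38253 genes in that table. Each symbol matched a single identifier.

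C/EBP proteins bind DNA as dimers through a basic region and a leucine zipper, so members can pair with each other and compete for the same sites. C/EBPα is needed to form granulocyte-macrophage progenitors, C/EBPβ acts when demand for granulocytes is high, C/EBPε drives the late granule genes of neutrophils, and C/EBPγ lacks an activation domain of its own and serves as a dimer partner. PU.1 is an ETS factor that opens myeloid receptor and macrophage genes, IRF8 binds beside it at genes of monocytes and dendritic cells, KLF4 is a zinc finger factor of inflammatory monocytes, and GFI1 is a zinc finger repressor required for neutrophils.

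RNA sequencing covered 49 samples from C57BL/6J mice labelled wild type, with a stated age of 6 to 12 weeks. The 30 normal samples were sorted by surface markers from lineage-depleted bone marrow. They comprised 5 of LT-HSC and 5 of ST-HSC, the stem cells with long-term and short-term repopulation, 6 of the multipotent progenitor MPP, 5 of CMP, the common progenitor of the myeloid line, and below it 5 of GMP (granulocyte and macrophage fate) and 4 of MEP (megakaryocyte and red cell fate). The 19 leukaemias were acute myeloid leukaemias named for the cell that was transduced, with 6 samples in each of GMP:MA9 and MPP:MA9, 4 in CMP:MA9 and 3 in STHSC:MA9. For these, sorted cells received MLL-AF9, a fusion oncogene abbreviated MA9, from the retrovirus pMSCV-IRES-MLL-AF9-GFP and were transplanted into sublethally irradiated mice, so the fusion was driven by the virus and not by its own locus. GFP+ bulk leukaemia cells were sorted, from spleen according to the study's methods and from bone marrow according to the labels, and the GFP gate leaves out cells of the host that lack the virus. According to the study, recipients were killed when their health declined, and survival after transplant differed by origin. The stated age therefore need not hold for the leukaemias at collection. The study asks whether the cell of origin leaves a mark on the leukaemia.

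Values are FPKM, sequenced fragments scaled by transcript length and by library total, and the labels record no batch. Sequencing depth was not in the table. The spacing of low values put the samples between 0.486 and 1.54 times the depth of the median sample. LT-HSC lay between 0.486 and 0.774, ST-HSC between 0.529 and 0.763, MEP between 0.620 and 0.688 and STHSC:MA9 between 0.563 and 0.853. The LT-HSC, ST-HSC and MEP samples were all below every MPP, CMP and GMP sample, with MPP between 1.16 and 1.40. The part of depth in the steps between these groups was not tested. Marker genes were summed by group, and those of erythroid and megakaryocyte cells came to 4290 to 4826 FPKM in MEP, 568 to 3948 FPKM in CMP, 1388 to 3731 FPKM in LT-HSC and 15.8 to 91.9 FPKM in GMP. Stem cell markers had summed medians of 215, 212 and 229 FPKM in LT-HSC, ST-HSC and MPP, and the ranges of these groups overlapped. Summed B cell markers reached 154 FPKM in MEP and 138 FPKM in LT-HSC, against at most 30.5 FPKM in GMP. The mitochondrial share of summed FPKM ran from 12.5% to 36.7% over the samples. The 4 libraries LT-HSC 4, LT-HSC 5, ST-HSC 4 and ST-HSC 5 stood apart through a neutrophil gene, S100a8, at 20265, 10324, 12625 and 2201 FPKM, against 6.49 to 352 FPKM in the other 6 stem cell libraries. Values without these libraries are given beside the results that rest on the stem cell groups. In bulk samples, fewer cells of a type and less RNA per cell cannot be told apart.

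The stretch that Cebpa, Cebpb, Cebpe and Cebpg share most closely is shown first, because it is what makes their products alternatives for the same DNA sites. It is the 60-base window of Cebpa that best matches the other 3 of these genes, read from the mm9 genome (NCBIM37), and it encodes part of the DNA-binding basic region. Capitals mark bases identical in all 4 genes.
Cebpa (chr7:35905290-35905349, plus strand): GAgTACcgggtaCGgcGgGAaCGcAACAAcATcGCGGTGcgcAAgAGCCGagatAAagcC
Cebpb (chr2:167515191-167515250, plus strand): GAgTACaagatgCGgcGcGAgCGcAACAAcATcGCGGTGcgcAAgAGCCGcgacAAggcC
Cebpe (chr14:55329547-55329606, minus strand): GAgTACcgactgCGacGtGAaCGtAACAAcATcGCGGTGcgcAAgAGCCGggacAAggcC
Cebpg (chr7:35835607-35835666, minus strand): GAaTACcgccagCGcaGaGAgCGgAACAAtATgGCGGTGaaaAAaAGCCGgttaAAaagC

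Cebpb and Cebpe each matched Cebpa at 51 of the 60 bases (85.0%), whereas Cebpg matched at 38 (63.3%). Cebpa and Cebpg lie close together on chromosome 7, at 35904312 to 35906945 on the plus strand and 35831441 to 35841522 on the minus strand. The other genes lie, in the mm9 annotation, on chromosome 2 (Cebpb, ENSMUSG00000056501, 167514415 to 167515918, and Sfpi1, ENSMUSG00000002111, 90922547 to 90955913), chromosome 16 (Cebpd, ENSMUSG00000071637), chromosome 14 (Cebpe, ENSMUSG00000052435, 55329200 to 55331011), chromosome 8 (Irf8, ENSMUSG00000041515, 123260258 to 123280594), chromosome 5 (Gfi1, ENSMUSG00000029275, 108145674 to 108155056) and chromosome 4 (Klf4, ENSMUSG00000003032, 55540013 to 55545347). The window lies within coding sequence in each of the 4 genes, and the annotation lists Cebpd as a pseudogene without a coding transcript although the gene is known to be functional. Few runs of bases were shared with protein-coding transcripts of other genes. No 31-base run of Cebpa, Cebpd, Cebpe, Sfpi1, Irf8 or Gfi1 occurred in such a transcript. The share was at most 0.408% in the other 3, highest for Cebpg. Pseudogenes and non-coding transcripts were not searched, and reads were not examined.

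In the normal hierarchy the C/EBP genes followed separate courses. Cebpa, the member that founds the granulocyte-macrophage lineage, was listed at 0.91, 0.35, 1.37, 4.6 and 2.45 FPKM in LT-HSC and at 2.34, 4.07, 6.72, 4.51 and 6.61 FPKM in ST-HSC. It ran from 9.04 to 16.6 FPKM in MPP (median 14.8), was 16.7, 18.8, 9.36, 7.04 and 6.75 FPKM in CMP, and reached 21.0, 20.5, 20.6, 18.1 and 19.1 FPKM in GMP. MEP, at 0.48, 0.96, 0.23 and 0.73 FPKM, lay below every CMP and GMP sample. Groups did not overlap, in either direction, for 31% of all genes between MEP and CMP and for 49.6% between GMP and MEP. A gene was called where limma's moderated test gave a Benjamini-Hochberg adjusted p below 0.05 over all genes tested and the log2 change of FPKM + 1 exceeded 1. Cebpa was called higher in ST-HSC than in LT-HSC (log2 change 1.11 ± 0.30, SE, adjusted p = 0.0168) and higher in MPP than in ST-HSC (1.41 ± 0.29, adjusted p = 0.000945). The first call was lost when only those 2 groups were fitted (adjusted p = 0.259) and without LT-HSC 1, LT-HSC 2, ST-HSC 3 or ST-HSC 5 (log2 changes of 0.87 to 1.00), and it held without libraries 4 and 5 of both groups (1.47, adjusted p = 0.00373). The second fell under the 2-fold limit after correction for GC content and gene length (0.91, adjusted p = 0.0316), and was 1.55 (adjusted p = 0.000328) without libraries 4 and 5.

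Cebpe, the late granulocyte member, was the most restricted of the family. In CMP it was 1.27, 1.32, 0.51, 1.16 and 0.38 FPKM, and in GMP 32.5, 17.1, 24.8, 20.6 and 19.3 FPKM, with no overlap. CMP and GMP did not overlap, in either direction, for 34.7% of all genes. The log2 change from CMP to GMP was 3.63 ± 0.76 (adjusted p = 0.00039), a 12.4-fold difference on the FPKM + 1 scale. LT-HSC gave 0.09, 0, 0.27, 45.8 and 17.7 FPKM, the high values being the 2 libraries rich in S100a8, and ST-HSC gave 1.55, 2.16, 3.11, 22.8 and 8.47 FPKM with the same libraries highest. With those libraries the step from LT-HSC to ST-HSC was 0.53 ± 0.76 (adjusted p = 0.741), and without them it was 1.53 (adjusted p = 0.0111).

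Cebpd, an early-response member, stood at 3.13, 4.29, 0.90, 0.95 and 1.49 FPKM in CMP and at 10.7, 6.37, 4.98, 4.56 and 5.09 FPKM in GMP. The groups did not overlap, as for 34.7% of all genes, and the call was near its limit (log2 change 1.29 ± 0.49, adjusted p = 0.0398). It was lost with a pseudocount of 0.1 (adjusted p = 0.162), without a filter on low values (adjusted p = 0.0782), and without any of CMP 3, CMP 4, CMP 5, GMP 1, GMP 2 or GMP 5 (adjusted p of 0.0529 to 0.103). Cebpb was low in every normal sample, with a maximum of 2.22 FPKM in LT-HSC 4, and fell below the mean of 1 FPKM that the test among normal groups required, so 8 of the 9 genes were tested there. In MEP it was listed at 0, 0.09, 0 and 0 FPKM.

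Cebpg, the partner without an activation domain, was the steadiest. Its group means ran from 15.7 ± 0.555 FPKM (SD, n = 4) in MEP to 25.9 ± 2.10 FPKM (n = 5) in GMP. It accounted for 89.4% of the summed C/EBP FPKM in MEP, 60.6% in CMP and 34.5% in GMP, where Cebpe (29.8%) and Cebpa (26.4%) made up most of the rest. The summed level was 17.6 ± 0.979 FPKM in MEP and 75.8 ± 8.86 FPKM in GMP. FPKM is scaled by length but not by base content. The exons of Cebpg hold 43.6% GC, and those of the other C/EBP genes hold 61.6% (Cebpe) to 67.2% (Cebpb). The part of GC content in these shares was not tested.

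**Figure D1:**
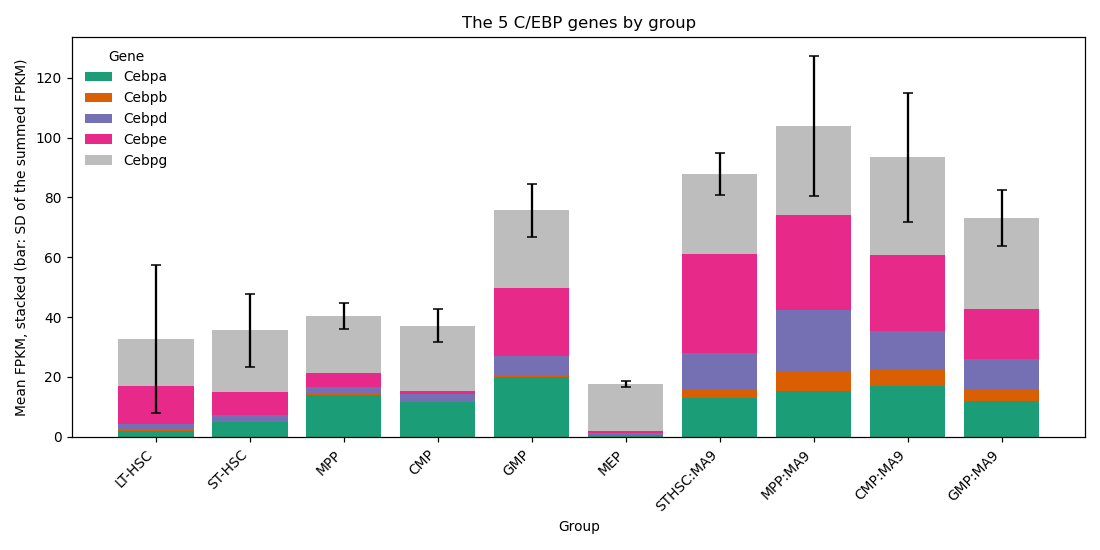
Stacked mean FPKM (y axis) of the 5 C/EBP genes in the 6 normal and 4 leukaemia groups (x axis), with the SD of the summed FPKM as the bar. Cebpg made up 89.4% of the sum in MEP and 34.5% in GMP, and a visible Cebpb layer appeared in the leukaemias.

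Sfpi1 and Irf8, whose products act as partners, were already high in CMP. Irf8 was 78.8, 96.7, 43.9, 42.7 and 43.9 FPKM in CMP and 55.0, 60.3, 40.0, 34.6 and 51.1 FPKM in GMP, and the groups overlapped. Sfpi1 was 79.0, 80.6, 43.1, 53.9 and 38.4 FPKM in CMP and 99.0, 65.6, 56.7, 61.9 and 71.1 FPKM in GMP, again overlapping. Neither differed by the test between CMP and GMP (adjusted p = 0.619 for Irf8 and 0.615 for Sfpi1). Irf8 was called higher in MPP than in ST-HSC (log2 change 1.33 ± 0.37, adjusted p = 0.0128), and the call was lost with the GC and length correction and the replicate block together (1.01, adjusted p = 0.116). Without libraries 4 and 5 of the stem cell groups it was 1.56 (adjusted p = 0.00336). For Sfpi1 the same step was 0.94 ± 0.39 (adjusted p = 0.0965) with all libraries and 1.57 (adjusted p = 7.33e-05) without those libraries, whose Sfpi1 was 86.1 and 38.9 FPKM in LT-HSC and 76.7 and 55.3 FPKM in ST-HSC.

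Gfi1, the neutrophil repressor, had the largest step from CMP to GMP after Cebpe. It was 5.47, 6.78, 5.31, 3.61 and 1.79 FPKM in CMP and 28.6, 23.7, 33.1, 27.9 and 27.2 FPKM in GMP. The step was called (log2 change 2.46 ± 0.32, adjusted p = 6.64e-07), as was the earlier step from ST-HSC to MPP (1.31 ± 0.30, adjusted p = 0.00322). That earlier call was lost after GC and length correction (0.92, adjusted p = 0.0452) and without ST-HSC 1 (0.94, adjusted p = 0.0151), being then under 2-fold, and without libraries 4 and 5 of the stem cell groups it held (1.65, adjusted p = 0.000335). Klf4 was low and variable among the normal groups, from 1.22 to 14.1 FPKM in MPP (median 4.24) and 6.10 to 13.8 FPKM in GMP, and was not called between CMP and GMP (1.11 ± 0.49, adjusted p = 0.0725). Without CMP 2, at 10.95 FPKM the highest of its group, that difference was called (1.47, adjusted p = 0.0186), and Cebpa was then called too (1.01, adjusted p = 0.0109, against 0.82 ± 0.30, adjusted p = 0.0309, with all samples).

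Between neighbouring normal groups, 1 of 8 tested genes was called from LT-HSC to ST-HSC, where 2.26% of all 12367 genes were (1.5% higher), 3 from ST-HSC to MPP (3.44%, 2.13% higher), 0 from MPP to CMP (4.32%), and 3 from CMP to GMP (11.2%, 3.31% higher). Each of these calls was a rise. The 3 that rose from CMP to GMP were Cebpd, Cebpe and Gfi1. All 10 erythroid and megakaryocyte markers were called lower at the same step. Summed mature granulocyte markers ran from 17.2 to 213.5 FPKM in CMP and from 1653 to 10956 FPKM in GMP. The part of either set of markers in these values was not tested. From MPP to CMP limma called 0, 3 of the 8 had an unadjusted p under 0.05, and Gfi1 came closest to a call (log2 change -0.98 ± 0.30, adjusted p = 0.0276), which it passed without MPP 1 or CMP 1, 2 or 3. Cebpe was -1.54 at that step with no overlap between MPP and CMP, as for 13.6% of all genes. It was uncalled over all libraries (adjusted p = 0.158) and called without LT-HSC and ST-HSC 4 and 5, which share the estimate of spread (adjusted p = 0.000394). In the other direction of the tree, MEP had 4 genes called lower than CMP (11.8% of all genes called, 9.49% lower): Irf8 fell by 3.83, Sfpi1 fell by 3.08, Cebpa fell by 2.90 and Gfi1 fell by 1.86 on the log2 scale. Between GMP and MEP, 7 of the 8 were called higher in GMP (20.5% of all genes called, 11.2% higher), and the log2 difference was largest for Gfi1 (4.31 ± 0.34). Cebpg, the exception, differed by 0.69 ± 0.11 (adjusted p = 8.75e-06), which is under 2-fold. All 8 differed among the 6 normal groups by the F test, as 78.4% of genes did.

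**Figure D2:**
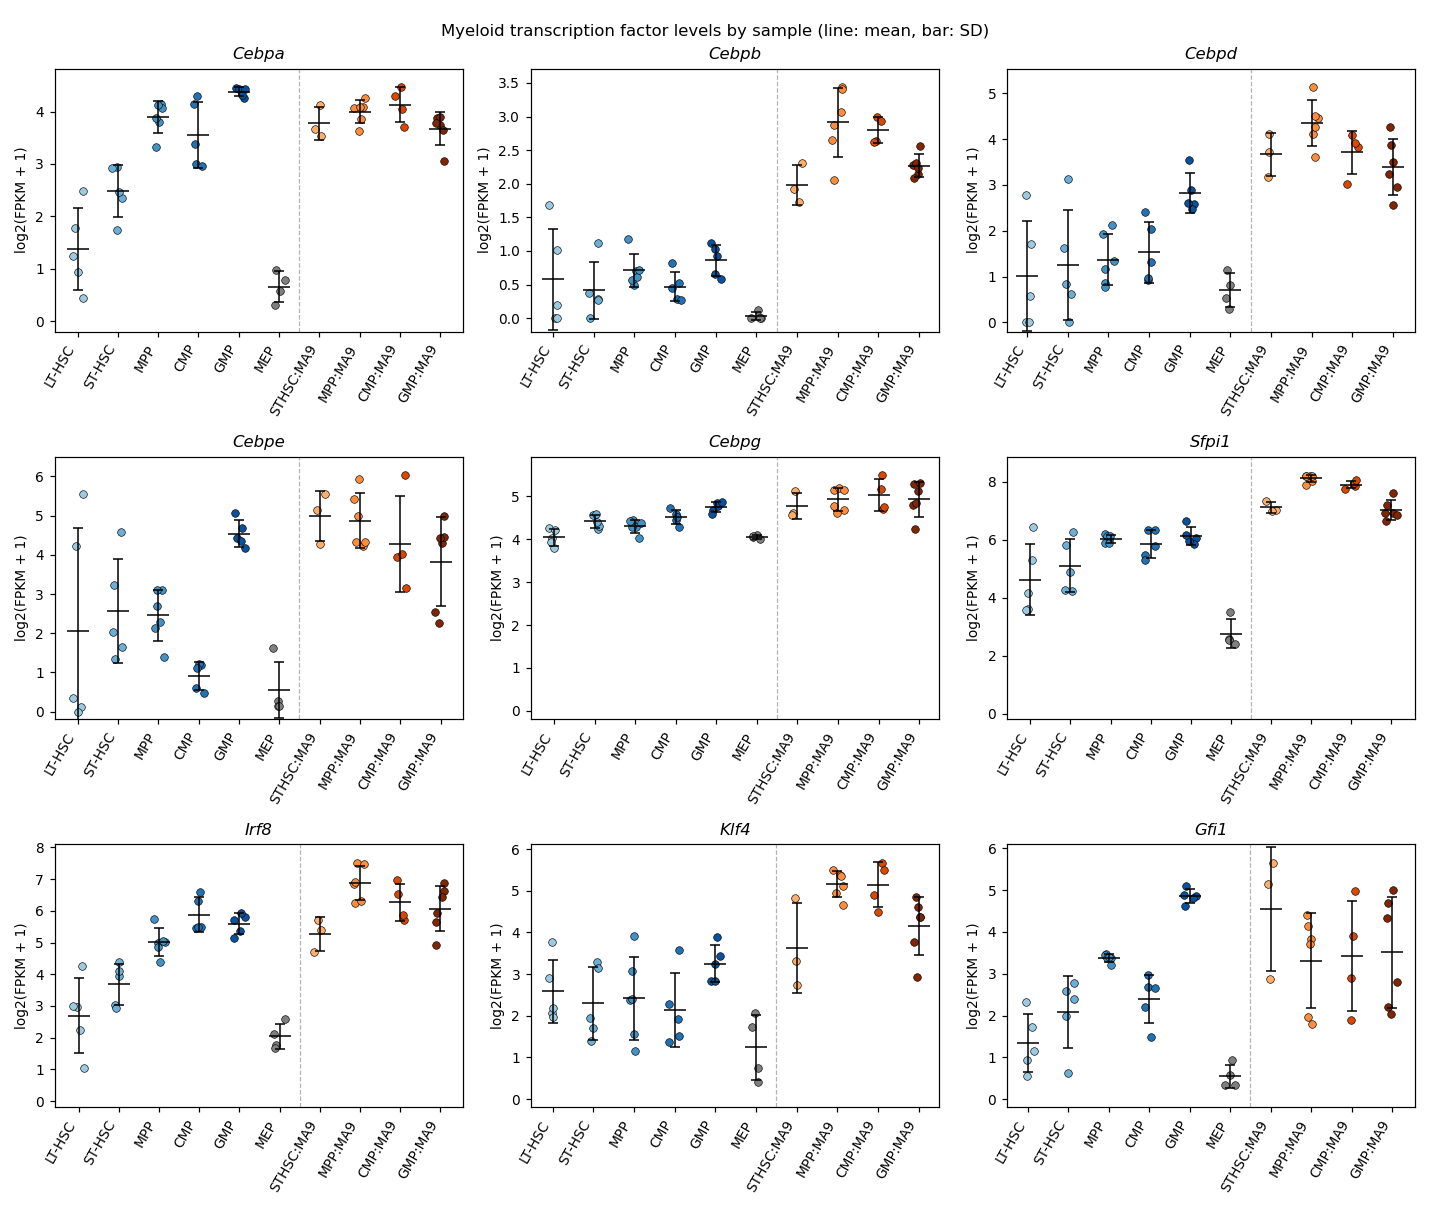
Level of each of the 9 genes as log2(FPKM + 1) on the y axis, with the 10 groups on the x axis, 1 point for each sample, a line at the group mean and a bar for the SD. The dashed line parts the 30 normal samples from the 19 leukaemias. Cebpb and Sfpi1 show no overlap across that line, while Cebpg varies little and Gfi1 spreads widely within each leukaemia group.

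The first question put to the leukaemias was how each differed from the normal cell it came from. Cebpb and Sfpi1 were higher in every leukaemia than in every normal sample of any kind. Cebpb ran from 2.31 to 9.85 FPKM over the 19 leukaemias (median 4.91) against a highest normal value of 2.22 FPKM. Sfpi1 ran from 99.7 to 296 FPKM against a highest normal value of 99.0 FPKM, in GMP 1. Such a separation upwards was seen for 2.88% of the 12666 genes that averaged 1 FPKM or more. The margins were narrow for both genes, 2.31 against 2.22 FPKM and 99.7 against 99.0 FPKM. A leukaemia group and its own normal cell did not overlap, in either direction, for a large share of all genes. That share was 39.6%, 40.3%, 48.4% and 39.6% for the leukaemias from ST-HSC, MPP, CMP and GMP.

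Cebpb was called higher in each of the 4 leukaemias than in its own normal cell, the one member of the 9 for which this held, as for 5.72% of all genes. In STHSC:MA9 it was 3.96, 2.31 and 2.78 FPKM against 0, 0.30, 0.22, 1.17 and 0.21 FPKM in ST-HSC (log2 change 1.57 ± 0.24, adjusted p = 8.36e-07). In CMP:MA9 it was 6.93, 5.21, 6.67 and 5.17 FPKM against 0.37, 0.76, 0.22, 0.43 and 0.21 FPKM in CMP (2.33 ± 0.22, adjusted p = 2.63e-11). In MPP:MA9 its lowest, median and highest values were 3.17, 6.85 and 9.85 FPKM, against 0.40, 0.58 and 1.26 FPKM in MPP (2.21 ± 0.19, adjusted p = 1.26e-12). GMP:MA9, at 3.23, 3.78 and 4.91 FPKM for the same 3 summaries, lay above GMP at 1.16, 1.04, 0.50, 0.58 and 0.90 FPKM (1.41 ± 0.20, adjusted p = 2.05e-07). These 4 calls held under each of the alternatives run. Low normal values make the changes on the FPKM + 1 scale understate the ratio.

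Sfpi1 was called higher in 3 of the 4 leukaemias by close amounts. Its log2 change was 2.02 ± 0.29 in STHSC:MA9 against ST-HSC, 2.09 ± 0.23 in MPP:MA9 against MPP and 2.06 ± 0.27 in CMP:MA9 against CMP (adjusted p = 4.13e-07, 8.16e-10 and 3.94e-08). In STHSC:MA9 it was 159.8, 129.6 and 127 FPKM, in CMP:MA9 216, 232, 245 and 263 FPKM, in MPP:MA9 236 to 296 FPKM (median 291) and in GMP:MA9 99.7 to 193 FPKM (median 120.0). GMP:MA9 was above GMP in every sample, but the log2 change of 0.89 ± 0.24 (adjusted p = 0.00204) stayed under the 2-fold limit. Without GMP 1, the highest GMP sample, it passed that limit (1.01, adjusted p = 0.00103).

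Cebpd and Cebpe were called higher than the normal cell in the leukaemias from ST-HSC, MPP and CMP. Cebpd changed by 2.43 ± 0.46, 2.98 ± 0.37 and 2.18 ± 0.42 on the log2 scale, in that order. Cebpe changed by 2.42 ± 0.61, 2.42 ± 0.48 and 3.38 ± 0.56, reaching 18.5, 45.6 and 34.6 FPKM in STHSC:MA9, 17.6 to 60.5 FPKM in MPP:MA9 (median 25.0) and 7.90, 14.5, 64.2 and 15.3 FPKM in CMP:MA9. The highest adjusted p of the 6 calls was 0.00112. ST-HSC 4, at 22.8 FPKM of Cebpe, was the one ST-HSC sample to overlap STHSC:MA9, and without ST-HSC 4 and 5 the change was 3.31 (adjusted p = 1.92e-05). Against GMP, the normal group with the highest mean of both genes, GMP:MA9 showed 0.58 ± 0.38 for Cebpd and -0.71 ± 0.50 for Cebpe, neither past the test (adjusted p = 0.198 and 0.225).

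Cebpa had another course. Against the own normal cell it was called higher only in STHSC:MA9, at 16.5, 11.7 and 10.6 FPKM against 2.34 to 6.72 FPKM in ST-HSC (log2 change 1.29 ± 0.26, adjusted p = 9.61e-05). MPP:MA9 ran from 11.4 to 18.2 FPKM (median 15.9) and differed from MPP by 0.11 ± 0.21 (adjusted p = 0.665). GMP:MA9 ran from 7.33 to 13.96 FPKM (median 12.5), below all 5 GMP samples, and differed by -0.71 ± 0.22 (adjusted p = 0.00543), past the p threshold and under 2-fold. Over all 19 leukaemias Cebpa lay between 7.33 and 21.1 FPKM (median 13.8). Cebpg was called in none of the 4, its changes running from 0.18 to 0.62, with adjusted p of 0.317 in GMP:MA9, 0.119 in STHSC:MA9, 0.0103 in CMP:MA9 and 0.000467 in MPP:MA9.

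Among the remaining factors, Klf4 was called higher in MPP:MA9 and CMP:MA9. CMP:MA9 gave 49.5, 44.3, 28.9 and 21.5 FPKM against 3.88, 10.95, 1.59, 1.84 and 2.80 FPKM in CMP (log2 change 3.00 ± 0.48, adjusted p = 1.75e-06), and the groups did not overlap. MPP:MA9 ran from 24.2 to 44.0 FPKM, above all MPP samples (2.74 ± 0.41, adjusted p = 4.84e-07). STHSC:MA9 was 27.3, 5.64 and 8.86 FPKM and overlapped ST-HSC, and its call (1.32 ± 0.52, adjusted p = 0.0342) was lost without STHSC:MA9 1 (0.72, adjusted p = 0.33), without a filter on low values (adjusted p = 0.0586), with only those groups fitted (adjusted p = 0.0901), with the replicate block (adjusted p = 0.0783) and without ST-HSC 1, 3 or 5 (adjusted p of 0.0643 to 0.0937). In GMP:MA9 it was not called (0.90 ± 0.43, adjusted p = 0.0717), and it was without GMP 2 (1.06, adjusted p = 0.0499) or GMP:MA9 1 (1.15, adjusted p = 0.0237).

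Irf8 was called higher in STHSC:MA9 (log2 change 1.59 ± 0.39, adjusted p = 0.000908) and MPP:MA9 (1.87 ± 0.31, adjusted p = 2.32e-06). Its values were 51.9, 24.9 and 40.7 FPKM in STHSC:MA9 and 75.4 to 179.6 FPKM in MPP:MA9 (median 117), above all samples of the matching normal cell. CMP:MA9 (124, 91.9, 51.2 and 58.1 FPKM) and GMP:MA9 (29.4 to 118 FPKM, median 72.5) overlapped CMP and GMP, where Irf8 was high from the start.

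Gfi1 was the one member called lower than in its own normal cell, in GMP:MA9. There it ranged from 3.07 to 31.4 FPKM (median 12.7) against 23.7 to 33.1 FPKM in GMP, a log2 change of -1.34 ± 0.55 (adjusted p = 0.0352). The groups overlapped, since GMP:MA9 1 and GMP:MA9 6 were at 31.4 and 24.9 FPKM. The call was lost without a filter on low values (adjusted p = 0.0672), with the replicate block (adjusted p = 0.0518), without GMP 1, 3, 4 or 5 and without GMP:MA9 2, 3 or 5 (adjusted p of 0.0526 to 0.106). In STHSC:MA9 the same gene was called higher than in ST-HSC (6.33, 49.03 and 34.2 FPKM against 0.54, 4.97, 2.97, 4.29 and 5.87 FPKM, log2 change 2.48 ± 0.66, adjusted p = 0.00215). CMP:MA9 differed from CMP by 1.02 ± 0.61 (adjusted p = 0.148), and by 1.53 without CMP:MA9 1 (adjusted p = 0.0404).

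In counts, 8 of the 9 genes were called higher in STHSC:MA9 than in ST-HSC, where 12.3% of 12600 genes were higher, 11.9% lower and 24.2% called in either direction. Without ST-HSC 4 and 5 the same comparison had 8 called higher (13.4% of all genes), with a median of 1.81. Cebpa was then 1.43, Cebpb 1.76, Cebpd 3.18, Sfpi1 2.65, Irf8 1.81, Gfi1 2.82 and Klf4 1.41 (adjusted p of at most 0.0440). MPP:MA9 had 6 called higher against MPP (13.5% higher, 13.6% lower, 27.1% in all) and CMP:MA9 had 5 against CMP (13% higher, 14.8% lower, 27.8% in all). GMP:MA9 had 2 called against GMP, Cebpb higher and Gfi1 lower (13.5% higher, 8.87% lower, 22.4% in all). The median log2 change of the 9 was 1.59, 2.09, 2.06 and 0.48 in this order, beside medians over all tested genes of -0.04, -0.09, -0.16 and 0.00. Under another scaling the median of all genes in CMP:MA9 against CMP moved by 0.16, which ended no call of these 9. Of the 10 erythroid and megakaryocyte markers 10, 7, 9 and 5 were called lower in the same 4 comparisons. The mitochondrial share was 26.9% to 34.5% in ST-HSC and 16.3% to 19.8% in STHSC:MA9, without overlap. The normal cells came from lineage-depleted marrow, whereas the leukaemias were bulk GFP+ cells. Summed mature granulocyte markers had medians of 1093, 74.3, 55.3 and 4591 FPKM in ST-HSC, MPP, CMP and GMP. In the leukaemias from them, in that order, the medians were 17871, 6161, 4054 and 8020 FPKM. The part of these measures and of the sort in these counts was not tested.

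**Figure D3:**
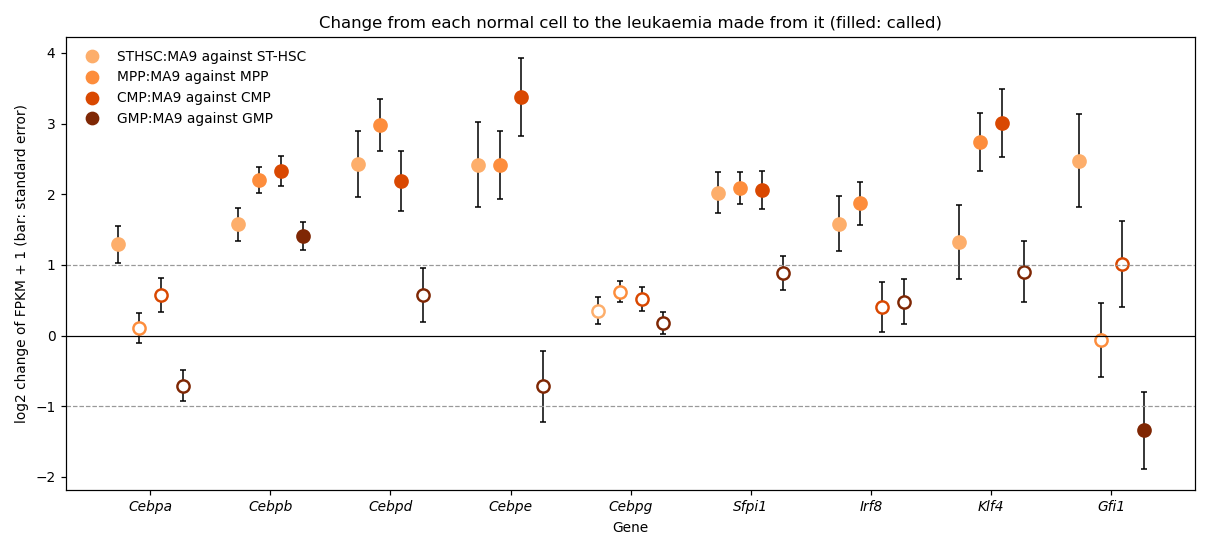
The log2 change of FPKM + 1 from each normal cell to the leukaemia made from it (y axis, bar: standard error) for the 9 genes (x axis), 1 colour for each origin. Filled points were called, and dashed lines mark a 2-fold change. Cebpb is filled for all 4 origins, Cebpg for none, and the GMP:MA9 points are mostly the lowest of their gene.

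The size of the change depended on the origin. The F test for a change that differs among the 4 origins passed an adjusted p of 0.05 for 8 of the 9 genes, as for 38% of all genes. Its adjusted p was 0.00012 for Cebpa, 0.000165 for Cebpe, 0.00349 for Cebpd, 0.00373 for Gfi1, 0.0111 for Sfpi1, 0.0156 for Klf4, 0.0173 for Irf8, 0.0195 for Cebpb and 0.322 for Cebpg. Because the normal cells differ in these genes to begin with, each leukaemia was also set against GMP, the normal group with the highest summed C/EBP level. These comparisons share the GMP samples, as do GMP:MA9 against GMP and GMP against CMP.

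Measured against GMP, STHSC:MA9 had 1 gene called, Cebpb (log2 change 1.12 ± 0.24, adjusted p = 0.000206, 18.9% of all genes called, 11.6% higher). That call was under 2-fold without STHSC:MA9 1 (0.96, adjusted p = 0.00553), and Sfpi1 stood at 0.98 ± 0.29 (adjusted p = 0.00613), which passed 2-fold without GMP 1 or STHSC:MA9 2 or 3 (1.02 to 1.11). MPP:MA9 had 6 called (25.6%, with 16.3% higher and 9.29% lower), with Cebpb higher by 2.05 ± 0.20, Sfpi1 by 1.98 ± 0.24, Klf4 by 1.91 ± 0.43, Cebpd by 1.53 ± 0.38 and Irf8 by 1.29 ± 0.32, and with Gfi1 at -1.54 ± 0.55 (adjusted p = 0.0152). After GC and length correction the Cebpd and Irf8 changes were under 2-fold (0.98 and 0.87), and Cebpa was called lower (-1.05, adjusted p = 5.12e-05). Without MPP:MA9 4 the Gfi1 call was lost (-1.24, adjusted p = 0.0534). CMP:MA9 had 4 called (23%, with 14.2% higher and 8.72% lower), with Cebpb at 1.93 ± 0.22, Klf4 at 1.89 ± 0.48, Sfpi1 at 1.76 ± 0.27 and Gfi1 at -1.44 ± 0.61. The Gfi1 call there (adjusted p = 0.0444) was lost with a pseudocount of 0.1, without a filter on low values, with the replicate block, without any single GMP sample and without CMP:MA9 1 or 2 (adjusted p of 0.0534 to 0.232).

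Differences among the 4 leukaemia groups were few, and Sfpi1 had the clearest. By the F test over the 4 groups the adjusted p was 9.17e-05 for Sfpi1, 0.0247 for Cebpb, 0.0277 for Klf4 and 0.0454 for Irf8, and the other 5 genes did not pass, so 4 of 9 passed where 13.3% of 12128 genes did. In pairs of leukaemias 3 of the 9 were called at least once (4.82% of all genes). STHSC:MA9 was lower than MPP:MA9 for Irf8 (-1.62 ± 0.40, adjusted p = 0.015), Klf4 (-1.54 ± 0.41, adjusted p = 0.0232) and Sfpi1 (-1.003 ± 0.164, adjusted p = 0.00114), and MPP:MA9 was higher than GMP:MA9 for Sfpi1 (1.10 ± 0.13, adjusted p = 4.29e-05). In the first pair 2.88% of all genes were called, with 2.47% lower in STHSC:MA9, and in the second 2.23%, with 1.39% higher in MPP:MA9. In each of the other 4 pairs limma called 0 of the 9, with 4 at an unadjusted p under 0.05 in STHSC:MA9 against CMP:MA9 (0.363% of all genes called), 0 in STHSC:MA9 against GMP:MA9 (0.536%), 0 in MPP:MA9 against CMP:MA9 (0.115%) and 4 in CMP:MA9 against GMP:MA9 (0.206%). Klf4 was called lower in STHSC:MA9 than in CMP:MA9 without STHSC:MA9 1 (-2.12, adjusted p = 0.0147). Sfpi1 did not overlap in STHSC:MA9 against MPP:MA9 or in MPP:MA9 against GMP:MA9. STHSC:MA9 was at 127 to 159.8 FPKM, GMP:MA9 at 99.7 to 193 FPKM and MPP:MA9 at 236 to 296 FPKM. In these pairs 17.5% and 7.69% of all genes did not overlap. None of the 9 was called between STHSC:MA9 and the mean of the other leukaemias (0.849% of all genes called), where Sfpi1 alone passed the p threshold (-0.56 ± 0.15, adjusted p = 0.0407, as 3.36% of genes did) and 4 had an unadjusted p under 0.05. Without STHSC:MA9 1 Klf4 was called there (-1.80, adjusted p = 0.0122), and without GMP:MA9 1 so were Klf4 (-1.28, adjusted p = 0.0374) and Irf8 (-1.22, adjusted p = 0.0401).

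These calls among leukaemias moved with the trend of expression on GC content, and whether that trend is technical was not tested. Its slope ran from 0.186 to 0.262 log2 units per 10 percentage points in MPP:MA9 and from -0.00519 to 0.111 in CMP:MA9. The slope ran from -0.207 to -0.0936 in GMP:MA9 and from -0.198 to -0.130 in STHSC:MA9, so that these groups overlapped. MPP:MA9 and CMP:MA9 each lay apart from every other leukaemia group. In pairs with either, origin and GC trend cannot be told apart. The exons of the 9 genes hold 43.6% (Cebpg) to 67.2% (Cebpb) GC, and Sfpi1 holds 56.0%. With the trend on GC content and length taken off, none of the 9 was called in any pair. Sfpi1 was then 0.70 in MPP:MA9 against GMP:MA9 (adjusted p = 0.0135) and -0.63 in STHSC:MA9 against MPP:MA9 (adjusted p = 0.0848). The calls for Irf8 and Klf4 were also lost with the replicate block (adjusted p = 0.0715 and 0.0772) and without STHSC:MA9 2 (adjusted p = 0.107 and 0.181) or STHSC:MA9 3 (adjusted p = 0.0544 and 0.115). Sfpi1 in STHSC:MA9 against MPP:MA9 fell below 2-fold without STHSC:MA9 2 or 3 or MPP:MA9 2, 3, 4 or 6. In the F test over origins Sfpi1 alone passed with the GC and length correction, and also without STHSC:MA9 2 and without STHSC:MA9 3. The mitochondrial share was 12.7% to 18.7% in MPP:MA9, 16.3% to 19.8% in STHSC:MA9, 12.8% to 22.9% in CMP:MA9 and 18.7% to 34.5% in GMP:MA9, and its part in these differences was not tested. The comparisons with normal cells were less affected: the counts of genes called against the own normal cell stayed within 1.5 times in the leukaemias from ST-HSC, MPP and CMP.

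Single leukaemias of the same origin differed widely in some of these genes. Gfi1 ran from 2.47 to 20.2 FPKM within MPP:MA9, from 2.72 to 30.3 FPKM within CMP:MA9, from 3.07 to 31.4 FPKM within GMP:MA9 and from 6.33 to 49.03 FPKM within STHSC:MA9, and its F test over origins gave an adjusted p of 0.628. Leukaemias low in Gfi1 tended to be high in Irf8. The 2 MPP:MA9 samples with the least Gfi1, at 2.47 and 2.91 FPKM, had the most Irf8 of all 19, at 179.6 and 178 FPKM. STHSC:MA9 2 had the most Gfi1 of all 19 (49.03 FPKM) and the least Irf8 (24.9 FPKM), and CMP:MA9 1 had 2.72 FPKM of Gfi1 and 124 FPKM of Irf8.

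Over the 19 leukaemias the correlation of Gfi1 with Irf8 on the log2 scale was r = -0.812 (permutation p = 2e-05, adjusted p = 0.00036 over the 36 pairs of genes) and rho = -0.856 (permutation p = 3e-05, adjusted p = 0.00108). It was -0.743 without the 2 samples farthest from the median of Irf8. With the mean of each origin removed it was -0.892 (permutation within origins, adjusted p = 0.00216), and within groups large enough to give a value it was -0.941 in MPP:MA9 and -0.853 in GMP:MA9. After GC and length correction it was -0.907. All permutation tests were two-sided. Summed mature granulocyte markers ran from 592 to 42648 FPKM over these leukaemias. The part of cell mixture in this and the following correlations was not tested.

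Klf4 went with Irf8 and Cebpe with Gfi1. Irf8 and Klf4 had r = 0.838 (permutation p = 1e-05, the smallest that 100000 permutations can give, adjusted p = 0.00036), rho = 0.774 (adjusted p = 0.00396) and 0.791 with origin means removed (adjusted p = 0.0027). Cebpe and Gfi1 had r = 0.690 (permutation p = 0.00098, adjusted p = 0.00948), rho = 0.658 (adjusted p = 0.0193) and 0.774 with origin means removed (adjusted p = 0.00672). Gfi1 and Klf4 had r = -0.674 (permutation p = 0.00133, adjusted p = 0.00948), rho = -0.633 (adjusted p = 0.0279) and -0.738 with origin means removed (adjusted p = 0.00672). Leaving out the 2 samples farthest on the first gene left r at 0.704, 0.617 and -0.610 for these 3 pairs. After GC and length correction the same 3 pairs had r of 0.807, 0.711 and -0.780. With Gfi1 and Irf8 they make the 4 pairs that passed both with and without the origin means.

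**Figure D4:**
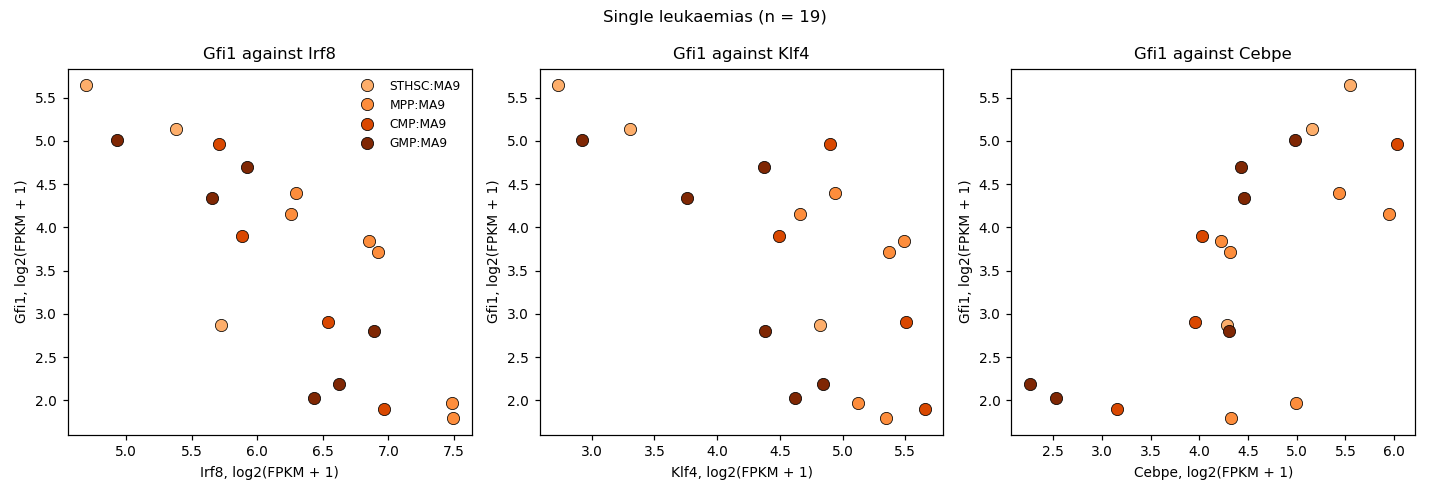
Gfi1 (y axis, log2(FPKM + 1)) against Irf8, Klf4 and Cebpe (x axes, same unit) in the 19 leukaemias, coloured by cell of origin. Gfi1 falls as Irf8 rises (r = -0.812) and as Klf4 rises (r = -0.674) and climbs with Cebpe (r = 0.690). The points of MPP:MA9, CMP:MA9 and GMP:MA9 each span over 2 units of Gfi1.

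Of the 36 pairs, 10 passed without regard to origin, 8 positive and 2 negative, and 7 passed with origin means removed. The 6 that passed only without regard to origin were Cebpb with Klf4, Sfpi1 and Cebpa, and Sfpi1 with Klf4, Irf8 and Cebpd, with r from 0.576 to 0.688 there and from -0.0289 to 0.394 with origin means removed. Those relations did not pass within origins, which does not show that they are absent there. By rho, Sfpi1 with Cebpb, Irf8 and Cebpd did not pass (permutation adjusted p of 0.0514 to 0.0640). After GC and length correction, Sfpi1 with Klf4 alone of these pairs passed without regard to origin (r = 0.585, permutation adjusted p = 0.0338). The others then had r from 0.133 to 0.512 (permutation adjusted p of 0.0911 to 0.766). The 3 that passed only with origin means removed were Cebpa with Cebpd (-0.746, adjusted p = 0.00672), Cebpe with Klf4 (-0.698, adjusted p = 0.00672) and Cebpe with Irf8 (-0.695, adjusted p = 0.0213). After GC and length correction these 3 passed without that removal too. Their r was then -0.724, -0.596 and -0.599 (permutation adjusted p = 0.0045, 0.0338 and 0.0338). Samples of STHSC:MA9 and CMP:MA9 were too few for a value of their own.

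Since Gfi1 varied in the opposite direction to Irf8 and Klf4 between single leukaemias, the 250 bases upstream of their first listed start sites are shown (RefSeq, GRCm38.p6). Both strands were searched for the C/EBP motif TTGCNNAA, the PU.1 motif GAGGAAGT, the ETS core GGAA, the composite ETS-IRF motif, the KLF motif CCNCACCC and the GFI1 motif AATCNCNGC. Any overlap was allowed, and capitals mark every match.
Gfi1 (chr5:107725806-107726055, minus strand): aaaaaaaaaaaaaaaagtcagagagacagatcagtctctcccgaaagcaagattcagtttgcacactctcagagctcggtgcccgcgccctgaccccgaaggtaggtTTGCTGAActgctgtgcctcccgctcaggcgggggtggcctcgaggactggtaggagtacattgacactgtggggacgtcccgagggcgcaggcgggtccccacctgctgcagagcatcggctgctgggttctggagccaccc
Irf8 (chr8:120736108-120736357, plus strand): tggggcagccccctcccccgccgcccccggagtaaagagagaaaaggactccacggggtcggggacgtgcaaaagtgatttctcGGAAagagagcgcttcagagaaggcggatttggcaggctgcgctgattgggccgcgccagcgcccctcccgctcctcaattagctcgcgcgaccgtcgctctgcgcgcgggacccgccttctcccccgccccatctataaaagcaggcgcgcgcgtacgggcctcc
Klf4 (chr4:55532476-55532725, minus strand): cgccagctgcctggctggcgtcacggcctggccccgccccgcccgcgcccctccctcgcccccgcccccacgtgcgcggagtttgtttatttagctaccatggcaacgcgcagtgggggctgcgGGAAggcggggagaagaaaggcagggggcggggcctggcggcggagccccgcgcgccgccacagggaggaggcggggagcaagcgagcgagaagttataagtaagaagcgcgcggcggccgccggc

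The Gfi1 window held a C/EBP match, TTGCTGAA, from -143 to -136 relative to the start, a motif found in 9.56% of 32851 promoter windows of this length. The Irf8 and Klf4 windows each held a single GGAA, which 93.4% of windows hold. No PU.1 (2.44% of windows), ETS-IRF (2.3%) or GFI1 (3.17%) match was found in the windows of any member present in the table, and the KLF motif (14.9%) was found only in that of Cebpa, at -242 to -235 on the opposite strand. Entries were found for Cebpa, Cebpb, Cebpg, Irf8, Gfi1 and Klf4. Entries for Cebpd, Cebpe and Spi1 are missing. A match describes the letters only.

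The genes that the 9 factors are known to control were followed in lists. Their counts against the own normal cell are to be read against the shares of all genes, which in the leukaemias from ST-HSC, MPP, CMP and GMP were 12.3%, 13.5%, 13% and 13.5% called higher and 11.9%, 13.6%, 14.8% and 8.87% called lower. Of the 9 measured primary granule genes, among them proteases and a peroxidase made early in the granulocyte line under C/EBPα, GFI1 and PU.1, 8 were tested among normal cells and 7 of these were called higher in GMP than in CMP. In GMP:MA9 7 of the 9 were called lower than in GMP and 2 higher, with a median log2 change of -3.15 beside 0.00 for all genes. In STHSC:MA9 3 were higher and 1 lower (median 1.48), in MPP:MA9 2 and 2 (median -0.80) and in CMP:MA9 2 and 1 (median 0.09). Without ST-HSC 4 and 5 the STHSC:MA9 counts were 5 and 1. Elane, neutrophil elastase, was at 231 ± 162 FPKM (SD, n = 5) in CMP, 4302 ± 1288 FPKM (n = 5) in GMP and 394 ± 351 FPKM (n = 6) in GMP:MA9 (log2 change against GMP -4.15 ± 0.73, SE). Ms4a3, a marker of granulocyte-macrophage progenitors, was at 563 ± 37.7 FPKM in GMP and 48.7 ± 34.4 FPKM in GMP:MA9 (-4.03 ± 0.82). Lyz2, the lysozyme of macrophages and neutrophils, went the other way, from 709.6 ± 141 FPKM in GMP to 4666 ± 989.9 FPKM in GMP:MA9 (2.71 ± 0.45).

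The 12 genes of the secondary granule list are mostly neutrophil proteins made late under C/EBPε, and they include S100a8, S100a9 and Fcnb. Against the own normal cell 10 were called higher in STHSC:MA9, 12 in MPP:MA9 and 11 in CMP:MA9. In GMP:MA9 4 were higher and 1 lower. The median log2 change was 4.31, 6.07, 5.71 and 1.38, and the STHSC:MA9 count was 12 without ST-HSC 4 and 5. Lcn2, lipocalin 2, was at 13.3 ± 10.9 FPKM in CMP and 1187 ± 1158 FPKM in CMP:MA9 (log2 change 6.32 ± 1.32, adjusted p = 0.000103). Fcnb, ficolin B of immature neutrophils, was the one that fell in GMP:MA9 (106 ± 48.2 to 36.6 ± 22.7 FPKM, -1.78 ± 0.75, adjusted p = 0.04). The list shares genes such as S100a8 with the mature granulocyte markers, whose sum ran from 592 to 42648 FPKM over the leukaemias, and the part of mature cells in these values was not tested.

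Of 13 tested monocyte and dendritic genes reached by IRF8, KLF4 and PU.1, 12 were called higher in STHSC:MA9, 12 in MPP:MA9, 12 in CMP:MA9 and 9 in GMP:MA9 than in the own normal cell, and 1, 0, 0 and 1 were called lower, with medians of 2.65, 3.44, 2.25 and 2.09. Without ST-HSC 4 and 5 the STHSC:MA9 counts were 12 higher and 0 lower. Emr1, the F4/80 antigen of macrophages, was at 3.70 ± 0.848 FPKM in GMP and 40.4 ± 7.31 FPKM in GMP:MA9 (3.14 ± 0.23, adjusted p = 1.64e-13). Cybb, a subunit of the phagocyte oxidase and a target of PU.1 and IRF8, was at 3.21 ± 1.81 FPKM in CMP and 350.1 ± 79.5 FPKM in CMP:MA9 (6.45 ± 0.53, adjusted p = 1.49e-12). Ly6c2, a monocyte surface antigen, rose from CMP to GMP (4.36 ± 0.83) and was lower in GMP:MA9 than in GMP (-1.06 ± 0.39, adjusted p = 0.0198). The 5 macrophage markers, of which Emr1 is also in this list, summed to 33.8 to 117 FPKM in the leukaemias and 13.3 to 22.6 FPKM in GMP, and their part in these values was not tested.

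Of the 8 receptors controlled by C/EBP and PU.1, 7 were tested, and 6, 6, 6 and 5 were called higher in the leukaemias from ST-HSC, MPP, CMP and GMP, in that order, and 6 were in the first without ST-HSC 4 and 5. The median log2 change was 2.65, 3.48, 2.19 and 1.49. Itgam, the integrin CD11b, was at 20.3 ± 5.23 FPKM in GMP and 232 ± 59.4 FPKM in GMP:MA9 (3.45 ± 0.41). Csf2ra, the receptor for GM-CSF, was at 14.2 ± 2.55 FPKM in MPP and 189.6 ± 23.4 FPKM in MPP:MA9 (3.65 ± 0.26). Antibody to CD11b was part of the lineage depletion of the normal marrow, so the sort selected against Itgam there.

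**Figure D5:**
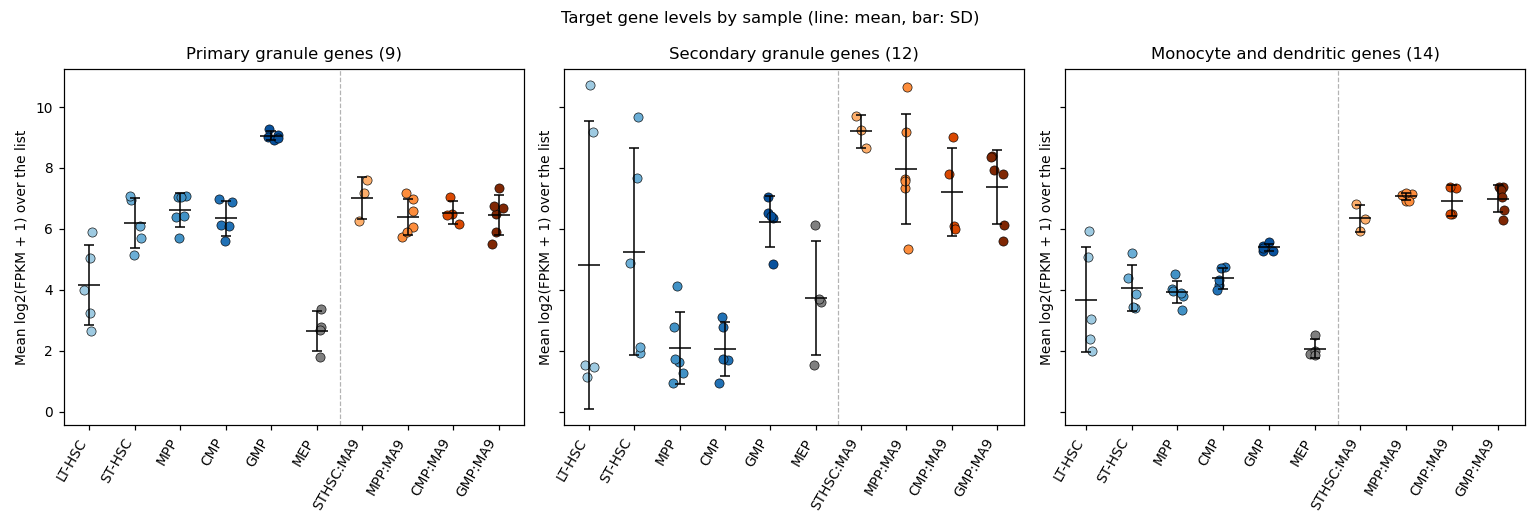
Mean log2(FPKM + 1) over the primary granule, secondary granule, and monocyte and dendritic genes (y axis) for each sample in the 10 groups (x axis), with a line at the group mean and a bar for the SD. Primary granule genes peak in GMP, above every leukaemia, while the monocyte and dendritic genes are higher in every leukaemia than in every GMP sample. The 2 high LT-HSC points in the middle panel are LT-HSC 4 and LT-HSC 5.

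Other regulators were counted in the same way. Among 15 tested leucine zipper partners and regulators of C/EBP proteins, 2 were called higher in each leukaemia, and 4, 4, 3 and 2 were called lower in the leukaemias from ST-HSC, MPP, CMP and GMP. The 2 of 15 called higher were close to the share of all genes called higher, and the median log2 change was -0.37, -0.29, -0.17 and 0.34. Jun and Fosb, AP-1 subunits that also respond to tissue handling, were called lower in all 4, and Fosl2, another AP-1 subunit, was called higher in all 4. In MPP, Jun was at 59.2 ± 33.1 FPKM against 3.28 ± 1.27 FPKM in MPP:MA9 (-3.67 ± 0.50). Trib2, a pseudokinase that promotes the breakdown of C/EBPα, was at 11.4 ± 7.11 FPKM in CMP, 0.256 ± 0.218 FPKM in GMP and 0.0725 ± 0.0922 FPKM in CMP:MA9 (against CMP -3.32 ± 0.28, adjusted p = 1.67e-12).

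Of 14 tested ETS and IRF factors besides Sfpi1 and Irf8, 1, 3, 3 and 3 were called higher and 2, 1, 0 and 0 lower in the leukaemias from ST-HSC, MPP, CMP and GMP. The median log2 change of the list was -0.25, 0.03, 0.03 and 0.43 in that order. For this list and the zinc finger list below, 12.3% to 13.5% of all genes were called higher and 8.87% to 14.8% lower. Irf5, an interferon regulatory factor of macrophages, was called higher in all 4, with 4.38 ± 0.935 FPKM in GMP and 49.4 ± 11.3 FPKM in GMP:MA9 (3.22 ± 0.27). Irf4, the closest relative of Irf8, was called higher in 3, with 0.246 ± 0.221 FPKM in GMP and 9.17 ± 6.63 FPKM in GMP:MA9 (2.74 ± 0.40), and was -0.47 ± 0.48 in STHSC:MA9 (adjusted p = 0.446). Among 23 tested zinc finger and other myeloid regulators, 7, 10, 11 and 12 were called higher and 3, 3, 3 and 0 lower, in the same order of origins, with medians of 0.62, 0.72, 0.91 and 1.09. For the leukaemia from ST-HSC these 3 lists had 2, 1 and 7 higher and 4, 1 and 3 lower without ST-HSC 4 and 5, with 13 ETS and IRF factors then tested. Gfi1b, the erythroid relative of Gfi1, fell from 52.6 ± 30.6 FPKM in CMP to 1.56 ± 0.748 FPKM in GMP (-4.29 ± 0.28), where Gfi1 rose. Id2, an inhibitor of E proteins, was called higher in all 4 leukaemias, with 3.64 ± 1.20 FPKM in GMP and 40.4 ± 13.7 FPKM in GMP:MA9 (3.14 ± 0.42).

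The genes whose levels followed each factor most closely were sought among 12156 genes by the smaller of the correlations over the 30 normal samples and over the 19 leukaemias. Samples of a group share their cell type, so these are descriptions. Gfi1 was followed by Ms4a3 (0.929 and 0.893) and Ankrd28 (0.886 and 0.888), and Cebpe by Pglyrp1 (0.949 and 0.892), a granule peptidoglycan-binding protein, and G0s2 (0.907 and 0.878). Sfpi1 was followed by Coro1a (0.966 and 0.916) and Laptm5 (0.909 and 0.868), both general leukocyte genes, and Irf8 by Tifab (0.922 and 0.954) and Selplg (0.912 and 0.932). Klf4 was followed by Ly6c1 (0.690 and 0.702) and by Cebpb (0.699 and 0.688). The nearest genes to Cebpb were Bcl6 and Tnfrsf1b, to Cebpd Tmem50b and Mapkapk3, to Cebpa Pygb and Tmem219, and to Cebpg Nfxl1 and Adam17, with r of 0.633 in normal samples and 0.637 in leukaemias for Adam17, the lowest of the 18.

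Ordered by mean level, few neighbours in the list of 10 groups differed beyond their spread. For Sfpi1, GMP:MA9 was higher than GMP, the next below it, and LT-HSC was higher than MEP, the lowest. For Cebpb the break lay between STHSC:MA9 and GMP. For Gfi1 it lay within the list of myeloid groups, between GMP and GMP:MA9, for Cebpd between GMP and ST-HSC, for Cebpe between GMP:MA9 and LT-HSC, whose mean rests on LT-HSC 4 and 5, and for Irf8 between MPP and ST-HSC. Cebpa had 3 such breaks, below CMP, below ST-HSC and below LT-HSC. Cebpg and Klf4 had none.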

How the data were processed

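RNA sequencing of sorted normal bone marrow cells and MLL-AF9 leukaemias was quantified by the authors with RSEM against mm9, per the labels' processing notes, and deposited as FPKM values per Ensembl gene (38253 genes). The aligner and annotation version are not given in the sources used here. The table has 19 further columns that match no sample, and they were not used. Gene names came from GENCODE M1 (NCBIM37). The 9 genes and all gene lists were chosen with earlier results of these data known.

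FPKM values were tested as log2(FPKM + 1) with limma 3.58.1 (trend, R 4.3.3) over genes averaging 1 FPKM or more in the fit. Calls needed a Benjamini-Hochberg adjusted p below 0.05 together with a change of over 1 on the log2 scale in either direction. Leukaemias and their 4 normal cells were fitted together (12600 genes), as were the 6 normal groups (12367), the 4 leukaemias (12128) and, for the order of groups, all 10 (12666). The study states that each sample is 1 mouse and that the data come from replicate experiments. The labels do not mark which sample came from which experiment, so no fit by experiment was made. The scripts were tested on simulated data. Correlations used 100000 permutations (scipy 1.17.1 and numpy 2.4.6 under Python 3.11.15, tables in pandas 2.3.3, figures in matplotlib 3.10.9).

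Read depth is unknown. Relative depth was estimated from the commonest ratio between samples over 7636 sparsely detected genes, and 96.9% of sample pairs lay within 0.1 log2 units of it. All 9 genes were described. From each list, the 3 genes with the largest mean absolute change in leukaemia among those called, and the largest called rise and fall from CMP to GMP, were eligible for naming, with the 2 genes most like each of the 9. Some eligible genes are given by counts only. Only for ST-HSC against LT-HSC did the deviations of samples with the same number correlate over 0.1 in every pair (0.142 to 0.683, mean 0.288, 5 pairs). Not every sample there correlated best with its own number. The part of the S100a8-rich libraries 4 and 5 in these correlations was not tested. Whether the numbers mark a true pairing is not given in the sources used here. Alternatives were a pseudocount of 0.1, no filter, median-ratio scaling, fits of only the groups compared, a replicate block, no fold threshold, a correction for GC content and length (spline with 5 degrees of freedom) with and without the block, leaving out replicates 4 and 5 of LT-HSC and ST-HSC, and leaving out each replicate (89 fits). The GC and length correction of the correlations was added after seeing the data. 1 sequence of the C/EBP comparison is not reported here.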

Additional observations from a re-analysis of the deposited data

Results flagged for a closer look

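In 5 of the 81 combinations of gene and group tested, a single sample lay far from the others of its group on the log2 scale, and chance flags about 1 in 20. Cebpa was 7.33 FPKM in GMP:MA9 2 against 11.61 to 13.96 FPKM in the other GMP:MA9 samples. That library also had the highest mitochondrial share of the leukaemias (34.5%) and the lowest FPKM sum of all samples (694414), and their part in the value was not tested. MPP 3 was high in Cebpb, at 1.26 FPKM against 0.40 to 0.64 FPKM, and low in Cebpg, at 15.31 FPKM against 18.53 to 20.71 FPKM. In MEP 2 Cebpb was 0.09 FPKM with the other MEP samples listed at 0, and in MEP 4 Cebpe was 2.07 FPKM against 0.11 to 0.21 FPKM. MEP 4 also had the most S100a8 of its group, 997 FPKM against 14.9 to 159 FPKM, whose part in the Cebpe value was not tested.

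For 8 genes the shift on transformation was unequal between the 4 origins by limma's interaction F test, as for 38% of all genes. The adjusted p was 0.00012 for Cebpa, 0.0195 for Cebpb, 0.00349 for Cebpd, 0.000165 for Cebpe, 0.0111 for Sfpi1, 0.0173 for Irf8, 0.00373 for Gfi1 and 0.0156 for Klf4.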

How the results depend on the processing

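No direction of a called value reversed under any alternative run. Of 3041 values of single genes under alternatives, 2919 kept their direction and side of the threshold, 73 lost a call and 49 gained one. Among counts of genes called, GMP:MA9 against GMP (2) became 1 with no filter on low values, 1 with the replicate block and 4 with no fold threshold. STHSC:MA9 against GMP (1) became 2 with median-ratio scaling, with the replicate block and with no fold threshold. ST-HSC against LT-HSC (1) became 0 with only those groups fitted, 3 without replicates 4 and 5 of both, and 2 with no fold threshold. It stayed 1 with the replicate block, and was the one comparison where every same-number pair correlated over 0.1. MPP against ST-HSC (3) became 1 with the GC and length correction and 0 with it and the replicate block. CMP against MPP (0) became 1 with median-ratio scaling, with only those groups fitted, without replicates 4 and 5 of LT-HSC and ST-HSC, and with no fold threshold. GMP against CMP (3) became 5 with the GC and length correction, with or without the replicate block. The contrast of STHSC:MA9 with the mean of the other leukaemias (0) became 1 with no fold threshold. The number called in any pair of leukaemias (3) became 5 with a pseudocount of 0.1, 0 with the GC and length correction, 0 with it and the replicate block, and 5 with no fold threshold. The number differing among the 4 leukaemia groups (4) became 1 with no filter, 2 with the replicate block, 1 with the GC and length correction and 0 with both. The cause of these shifts was not tested.

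Leaving out 1 replicate gave counts of 1 to 3 for GMP:MA9 against GMP, 0 to 2 for STHSC:MA9 against GMP, 0 to 2 for ST-HSC against LT-HSC, 0 to 1 for CMP against MPP, 2 to 5 for GMP against CMP, 0 to 2 for the contrast of STHSC:MA9 with the other leukaemias, 1 to 4 for any pair of leukaemias and 1 to 5 for the 4 leukaemia groups. The replicate block moved no other count by over 1.5 times, and outside ST-HSC and LT-HSC not every same-number pair correlated over 0.1. The number of genes whose change differs among origins was 8 in each leave-out. Read depth is unknown, so zeros and values near 0, as for Cebpb in normal cells, have no stated precision.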

Other observations

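Among single leukaemias, the mean level of 3 target lists was set against each of the 9 factors, which makes 27 relations over 19 samples, chosen after the data were seen. Monocyte and dendritic genes went with Irf8 (r = 0.865, rho = 0.830, permutation adjusted p = 0.00027 and 0.00054) and with Klf4 (r = 0.798, rho = 0.644, permutation adjusted p = 0.000405 and 0.0132), and against Gfi1 (r = -0.810, rho = -0.793, permutation adjusted p = 0.000405 and 0.00072). Primary granule genes went with Gfi1 (r = 0.815, rho = 0.800, permutation adjusted p = 0.000405 and 0.00072), and secondary granule genes with Cebpe (r = 0.786, rho = 0.709, permutation adjusted p = 0.00054 and 0.00718). With the means of the origins removed these 5 values of r were 0.883, 0.903, -0.802, 0.793 and 0.792. Without the 2 samples farthest from the median of the factor they were 0.772, 0.630, -0.811, 0.790 and 0.724. In all, 9 of the 27 passed an adjusted p of 0.05 for r. The link of Cebpe with the primary granule genes was the weakest of these, with r = 0.548 and 0.303 without its 2 farthest samples. Secondary granule genes also went with Gfi1 (r = 0.668, rho = 0.696, permutation adjusted p = 0.00958 and 0.00718). With Irf8 they had r = -0.509 and rho = -0.642 (permutation adjusted p = 0.0723 and 0.0132). The part of cell mixture in these relations was not tested.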
